A study of Sus scrofa with 15 samples.

Results

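Genes of blood coagulation and fibrinolysis were followed in liver RNA from piglets given lipopolysaccharide (LPS), the outer membrane glycolipid of Gram-negative bacteria. The list held 36 genes chosen by symbol, and 30 of them had a row among the 31908 genes of the deposited count table. The symbols FGA, VWF, SERPINA10, PROZ, THBD and VKORC1 were paired with no row, so these 6 genes are not analysed here. All animals were male piglets in the growing stages of a Duroc x Large White x Landrace cross. Piglets of the LPS group were injected intraperitoneally with 80 μg/kg of LPS, and those of the CON group with sterile saline in the same way, and livers were taken 4 h later. Polyadenylated, fragmented liver RNA that had not been passed over the m6A antibody was sequenced in 3 libraries per group. CON replicates 1 and 2 are each listed as 2 entries, and the other replicates of these groups as a single one. Every replicate has a single column of counts, called a library here. The labels do not say whether each library came from a single piglet, so that p-values measure only the spread between these libraries.

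Clotting starts when tissue factor (F3) meets factor VII, and a chain of zymogens and cofactors then leads to thrombin (F2), which cuts fibrinogen into fibrin. The fibrin mesh is cross-linked by factor XIII and dissolved by plasmin, which tissue-type and urokinase plasminogen activators release from plasminogen. Antithrombin, heparin cofactor II and the protein C pathway hold clotting in check. Hepatocytes make most of these plasma proteins, whereas endothelial, stromal and blood cells are the known source of tissue factor, factor VIII, factor XIII A, the protein C receptor and the plasminogen activators. Fibrinogen is a classical acute-phase protein, and infection is known to shift both clotting and fibrinolysis.

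The CON libraries held 5927348 to 10351491 counts and the LPS libraries 4348478 to 19967417, and the genes of the list took 3.47% to 5.09% of the CON counts and 5.06% to 7.25% of the LPS counts. Values below are CPM, each gene's share of its library as edgeR scales it with TMM factors. The quasi-likelihood test of edgeR was run on the 12774 genes that passed a filter on low counts, and genes past an adjusted p of 0.05 (Benjamini-Hochberg) that also exceeded 1.5-fold were called. Log2 fold changes are LPS over CON and stand ± their standard error. Of all tested genes 7 were called higher (0.0548%) and 0 lower, while 790 and 809 passed an unadjusted p of 0.05, and DESeq2 called 275 and 142. The LPS libraries were less alike than the CON libraries, with correlations of log2 CPM across the tested genes of 0.914 between replicates 1 and 2, 0.909 between 1 and 3 and 0.858 between 2 and 3, against 0.947 to 0.957 between CON libraries. LPS replicate 2 was the LPS library nearest to the CON group (0.928 to 0.949), and LPS replicate 3 correlated with it at 0.844 to 0.879. With LPS replicate 2 left out, calls by edgeR came to 512 higher (3.76%) and 470 lower genes (3.45%). Results are therefore also given without this library and without LPS replicate 3. LPS replicate 2 was singled out from these same values, so calls made without it are not independent support. The 10 hepatocyte markers examined were all among the tested genes and summed to 67885 to 87181 CPM in the CON libraries and 42824, 52369 and 85820.4 CPM in LPS replicates 1, 2 and 3. In whole liver RNA, fewer cells of a type and less RNA per cell cannot be told apart.

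Fibrinogen chains, alpha-2-macroglobulin, tissue-type plasminogen activator and the protein C receptor lay higher in every LPS library than in every CON library, while heparin cofactor II, kininogen, prekallikrein, plasminogen and factors XI, IX and XIII B lay lower. Of the 30 genes 29 passed the filter, the exception being TFPI. None of the 29 was called by edgeR with all 6 libraries, against 0.0548% of all tested genes. At an unadjusted p below 0.05, 5 of the 29 were higher (FGB, FGG, PLAT, PROCR and A2M), where 6.18% of all tested genes were, and 5 were lower (F5, F11, KLKB1, KNG1 and SERPIND1), where 6.33% were. The groups did not overlap in 12 genes, with 5 all higher and 7 all lower in the LPS group, beside 6.52% and 9.8% of all tested genes. DESeq2 called FGB, FGG and PLAT higher and SERPIND1 lower, where it called 1.89% of genes higher and 0.976% lower (2.87% in all). Without LPS replicate 2 edgeR called the same 3 genes higher and F5, F11 and SERPIND1 lower, where it called 7.2% of all tested genes. Leaving out LPS replicate 1 or any CON replicate instead, edgeR called 0 of the listed genes. Without the filter on low counts it called PLAT higher, beside 2.28% of genes, and F5, F11 and SERPIND1 lower, beside 1.48%. Log2 fold changes of the 29 genes ran from -1.45 to 5.24, with 11 above and 18 below 0 and a median of -0.30, beside a median of 0.01 over all tested genes.

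**Figure D1:**
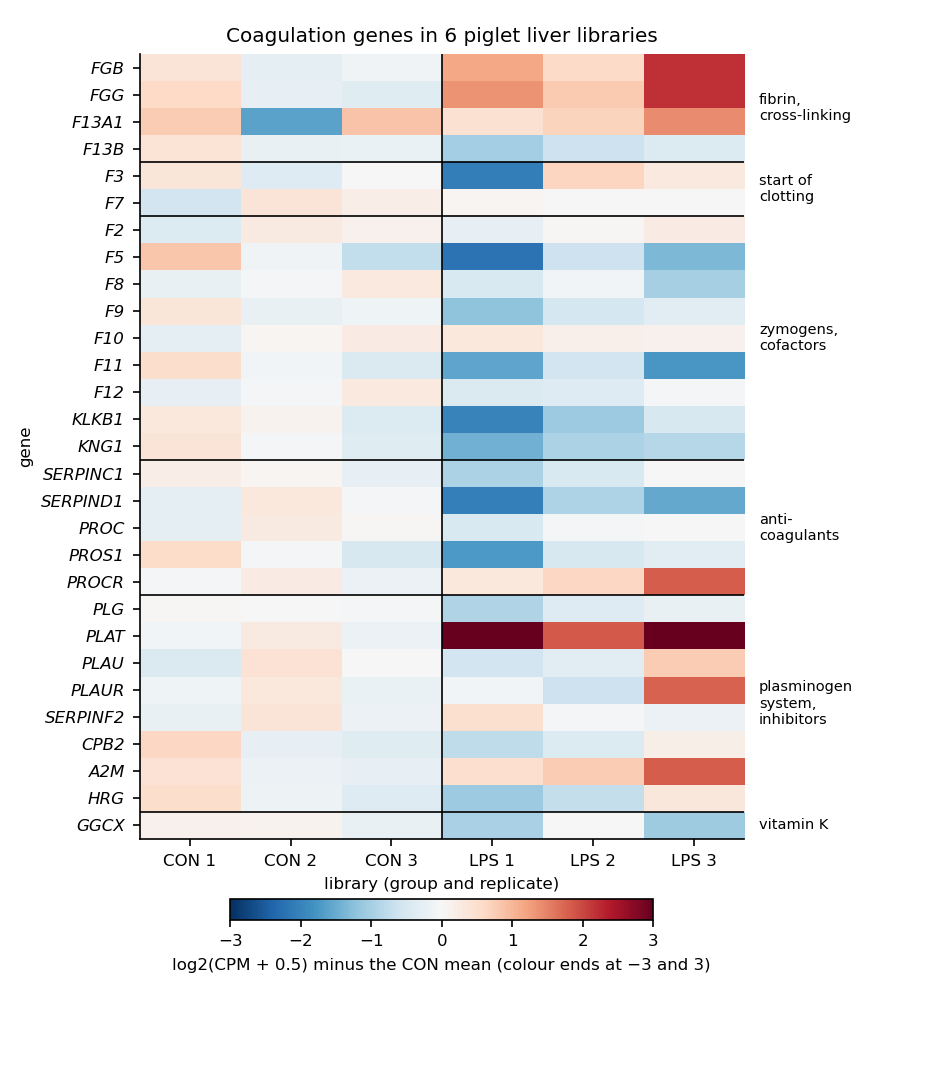
Level of the 29 tested genes (rows, grouped by role) in the 6 libraries (columns), as log2(CPM + 0.5) minus the mean of the 3 CON libraries, with red above and blue below that mean and colours ending 3 log2 units from it. FGB, FGG, A2M and PLAT are red in all 3 LPS columns, and SERPIND1, F11, KLKB1 and KNG1 are blue in all 3, while LPS replicate 2 is the palest LPS column in 5 of these 8 rows.

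Levels of different genes were compared per kilobase of the deposited gene length. In the CON group HRG, which encodes the plasma protein histidine-rich glycoprotein, had the highest level of the list at 2159.9 ± 738 CPM per kb (mean ± SD, n = 3). FGB followed at 1894 ± 464, SERPINC1 at 1203 ± 183 and FGG at 1046 ± 409.5 CPM per kb, where the mean ± SD ranges of FGB and SERPINC1 were separate and those of the other neighbours in this order overlapped. Next came F10, A2M, F2, PLG and SERPIND1 between 541 and 851 CPM per kb. The lowest levels were those of PLAU (3.0 ± 0.941), PROCR (1.38 ± 0.255), PLAT (1.31 ± 0.254) and TFPI (0.125 ± 0.0452 CPM per kb), all known mainly from cells other than hepatocytes. In the LPS group FGB stood first at 5167 ± 3017 CPM per kb, FGG next at 2929 ± 1444 and HRG after them at 1630.1 ± 892. The largest move in rank was that of PLAT, from 29 to 17 of 30, with 49.1 ± 65.9 CPM per kb in the LPS group.

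FGB and FGG, which encode the fibrinogen beta and gamma chains, had the highest levels per kilobase of the list in the LPS group. FGB (ENSSSCG00000008997, chr8:74594255-74607360, in the coordinates of the deposited table, whose build the sources used here do not name) had 12715, 8098 and 9054 CPM in CON replicates 1, 2 and 3 and 21935, 14561 and 44959.6 CPM in LPS replicates 1, 2 and 3. Every LPS library lay above every CON library, LPS replicate 3 by far the most, and the closest pair was LPS replicate 2 and CON replicate 1. The difference was 1.45 ± 0.46 as log2 fold change (edgeR adjusted p = 0.257). For FGG (ENSSSCG00000024314, chr8:74553105-74686118) the CON values were 5064, 2812 and 2597 CPM and the LPS values 8431, 5765 and 15121 CPM. The same libraries were highest and closest as for FGB, with 1.48 ± 0.45 as log2 fold change (edgeR adjusted p = 0.244). Together both genes held 1.14% to 1.93% of all counts in the CON libraries and 2.26% to 4.41% in the LPS libraries. The ratio of FGB to FGG per kilobase was 1.59, 1.83 and 2.21 in the CON libraries and 1.65, 1.60 and 1.89 in the LPS libraries, so that the groups overlapped in the balance of both chains. DESeq2 called both genes, with adjusted p of 0.0377 for FGB and 0.0289 for FGG, as did edgeR without LPS replicate 2, with 0.0436 and 0.0415. The log2 fold changes stayed above 0 whichever library was left out, between 0.89 and 1.75 for FGB and between 1.05 and 1.85 for FGG, with both low ends without LPS replicate 3, and the adjusted p ran over all alternatives from 0.0377 to 0.688 and from 0.0289 to 0.601.

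The annotated span of FGG contains FGB on the other strand and a further row without a symbol, ENSSSCG00000008998 (chr8:74574882-74584202), whose exons share no base with those of FGG. RefSeq's table for the Sscrofa11.1 assembly places FGA, the alpha chain gene, between FGG and FGB, but the files do not pair that symbol with a row, and the unnamed gene was not counted among the 30. It was singled out after its values were seen, at 9413, 7212 and 8004 CPM in the CON libraries and 22647, 11561 and 37703 CPM in the LPS libraries. As with FGB and FGG, the groups did not overlap and LPS replicate 3 was highest (log2 fold change 1.55 ± 0.45, edgeR adjusted p = 0.223).

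The subunits of factor XIII, the transglutaminase that cross-links fibrin, had no shared direction. F13B, the carrier subunit secreted by hepatocytes (ENSSSCG00000023301, on an unplaced scaffold), had 91.2, 58.4 and 59.4 CPM in the CON libraries and 33.4, 43.8 and 51.3 CPM in the LPS libraries. All LPS values were below all CON values, by less than 10 CPM at the closest pair, with -0.70 ± 0.32 as log2 fold change (edgeR adjusted p = 0.414). F13A1, the catalytic subunit known from macrophages and platelets (ENSSSCG00000024310, chr7:3751291-3900765), had 16.5, 2.81 and 17.8 CPM in the CON libraries and 13.3, 15.5 and 26.4 CPM in the LPS libraries. CON replicate 2 was far below the other 5 libraries, the groups overlapped, and the log2 fold change was 0.57 ± 0.58 (edgeR adjusted p = 0.734). The 9 tested Kupffer cell or macrophage markers all had log2 fold changes below 0 (median -0.48), the list summed to 1946 to 3208 CPM in the CON libraries and 1364, 2271 and 1868 CPM in LPS replicates 1, 2 and 3, and their part in the values of F13A1 was not tested.

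The genes that start clotting gave no difference that exceeded the spread between libraries. Tissue factor, F3 (ENSSSCG00000022447, chr4:122826992-122837672), had 11.5, 6.72 and 9.0 CPM in the CON libraries and 1.74, 14.1 and 10.9 CPM in the LPS libraries, on no more than 160 counts in any of them. LPS replicate 1 was lowest and LPS replicate 2 highest of all 6 libraries, and the log2 fold change was -0.01 ± 0.60 (edgeR adjusted p = 0.997). Its sign turned with the library left out, from -0.44 without LPS replicate 2 to 0.46 without LPS replicate 1. Exons of ABCD3 on the other strand cover 8.02% of its exonic bases. F7, the zymogen that tissue factor activates (ENSSSCG00000029503, chr11:78512158-78518671), had 153 ± 48.8 CPM in CON livers and 148 ± 3.46 CPM after LPS (mean ± SD, n = 3 per group). The LPS libraries all lay inside the CON range, with a log2 fold change of -0.04 ± 0.33. TFPI, the inhibitor of the tissue factor and factor VII complex (ENSSSCG00000016032, chr15:92345075-92409905), had only 5, 4 and 3 counts in the CON libraries and 0, 2 and 2 in LPS replicates 1, 2 and 3. It did not pass the filter on low counts, and a difference was not detectable at this depth.

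Among the 9 zymogens and cofactors with a row, 7 had log2 fold changes below 0, and 3 of the 4 genes of the contact system, a set put together after its values were seen, were lower in every LPS library, as were 9.8% of all tested genes. The contact system consists of factors XI and XII, prekallikrein and high-molecular-weight kininogen, and it links clotting to the release of bradykinin. KNG1, the kininogen gene (ENSSSCG00000011802, chr13:124521277-124557376), had 903, 675 and 531 CPM in the CON libraries and 252, 358 and 381 CPM in the LPS libraries. The LPS values were close to each other and all below the lowest CON value, with -1.09 ± 0.34 as log2 fold change (edgeR adjusted p = 0.253). KLKB1, which encodes prekallikrein (ENSSSCG00000015799, chr15:47071556-47103624), had 214, 188 and 129 CPM in the CON libraries and 42.5, 81.0 and 123 CPM in the LPS libraries. LPS replicate 3 came within 6 CPM of CON replicate 3, and the log2 fold change was -1.10 ± 0.42 (edgeR adjusted p = 0.333). F11 (ENSSSCG00000032653, chr17:9045997-9073520) had 170.3, 113 and 87.6 CPM in the CON libraries and 39.2, 79.3 and 35.3 CPM in the LPS libraries. The groups were separate here too, with LPS replicate 2 nearest to the CON group, and the log2 fold change was -1.27 ± 0.41 (edgeR adjusted p = 0.265). Without LPS replicate 2 it was -1.73 and edgeR called the gene (adjusted p = 0.0256), as it did with all libraries and no filter on low counts (adjusted p = 0.0378, range over all alternatives 0.0256 to 0.722). F12 (ENSSSCG00000031274, chr2:80526767-80546096) had 637 ± 123 CPM in CON livers and 517 ± 72.2 CPM after LPS (mean ± SD, n = 3 per group), the groups overlapped, and the log2 fold change was -0.30 ± 0.31.

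The cofactors F5 and F8 are related in domain structure but are known from different cells, hepatocytes for factor V and endothelial cells for factor VIII. F5 (ENSSSCG00000006289, chr4:81403232-81485055) had 438, 229 and 148 CPM in the CON libraries and 52.8, 160.3 and 95.6 CPM in the LPS libraries. CON replicate 1 was the highest of all libraries, and LPS replicate 2 exceeded CON replicate 3. The comparison gave -1.40 ± 0.51 as log2 fold change (edgeR adjusted p = 0.308). Exons of SELP on the same strand cover 4.11% of its exonic bases. Without LPS replicate 2 F5 was called, at -1.86 with an adjusted p of 0.0495, and without CON replicate 1 its log2 fold change was -0.88 and it was not, with adjusted p over all alternatives from 0.0210 to 0.760. F8 (ENSSSCG00000012822, chrX:125229449-125300101) had 53.2, 60.6 and 76.2 CPM in the CON libraries and 45.8, 59.4 and 31.2 CPM in the LPS libraries, with overlap of the groups and a log2 fold change of -0.48 ± 0.33 (edgeR adjusted p = 0.588). Of its exonic bases 44.4% are also exons of unnamed rows on the same strand, so its counts are uncertain. Of 11 endothelial markers 9 had log2 fold changes below 0 (median -0.44), and the list summed to 331 to 635 CPM in the CON libraries and 275, 425 and 295 CPM in LPS replicates 1, 2 and 3, and their part in the F8 values was not tested.

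The vitamin K dependent factors, whose glutamate residues are carboxylated so that they bind calcium and membranes, had log2 fold changes from -0.79 for PROS1 to 0.19 for F10, and of them only F9 had separate groups. F2, the prothrombin gene (ENSSSCG00000013252, chr2:15791451-15819138), had 2661 ± 620.0 CPM in CON livers and 2669.5 ± 451 CPM after LPS (mean ± SD, n = 3 per group), with a log2 fold change of 0.00 ± 0.33. Exons of CKAP5 on the other strand cover 31.0% of its exonic bases. F10 (ENSSSCG00000009558, chr11:78521606-78538260) had 1372, 1742 and 1989 CPM in the CON libraries and 2099, 1869 and 1853 CPM in the LPS libraries. LPS replicate 1 was the highest of all 6, and the log2 fold change was 0.19 ± 0.31. F9 (ENSSSCG00000012711, chrX:114218707-114250436) had 493, 325 and 349 CPM in the CON libraries and 166, 266 and 307 CPM in the LPS libraries. All LPS values lay below all CON values, LPS replicate 3 within 18 CPM of CON replicate 2, and the log2 fold change of -0.66 ± 0.35 (edgeR adjusted p = 0.476) was not called under any alternative run. Over the 6 vitamin K dependent genes tested (F2, F7, F9, F10, PROC and PROS1, grouped after their values were seen) the median log2 fold change was -0.11. GGCX, the carboxylase that modifies these proteins (ENSSSCG00000027381, chr3:59202377-59221132), had 50.9, 49.5 and 39.5 CPM in the CON libraries and 23.5, 46.3 and 21.7 CPM in the LPS libraries. LPS replicate 2 lay inside the CON range and the other LPS libraries below it, with a log2 fold change of -0.61 ± 0.36 (edgeR adjusted p = 0.518). Exons of MAT2A on the other strand cover 42.3% of the exonic bases of GGCX, and the strand setting of the counting is not known here.

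**Figure D2:**
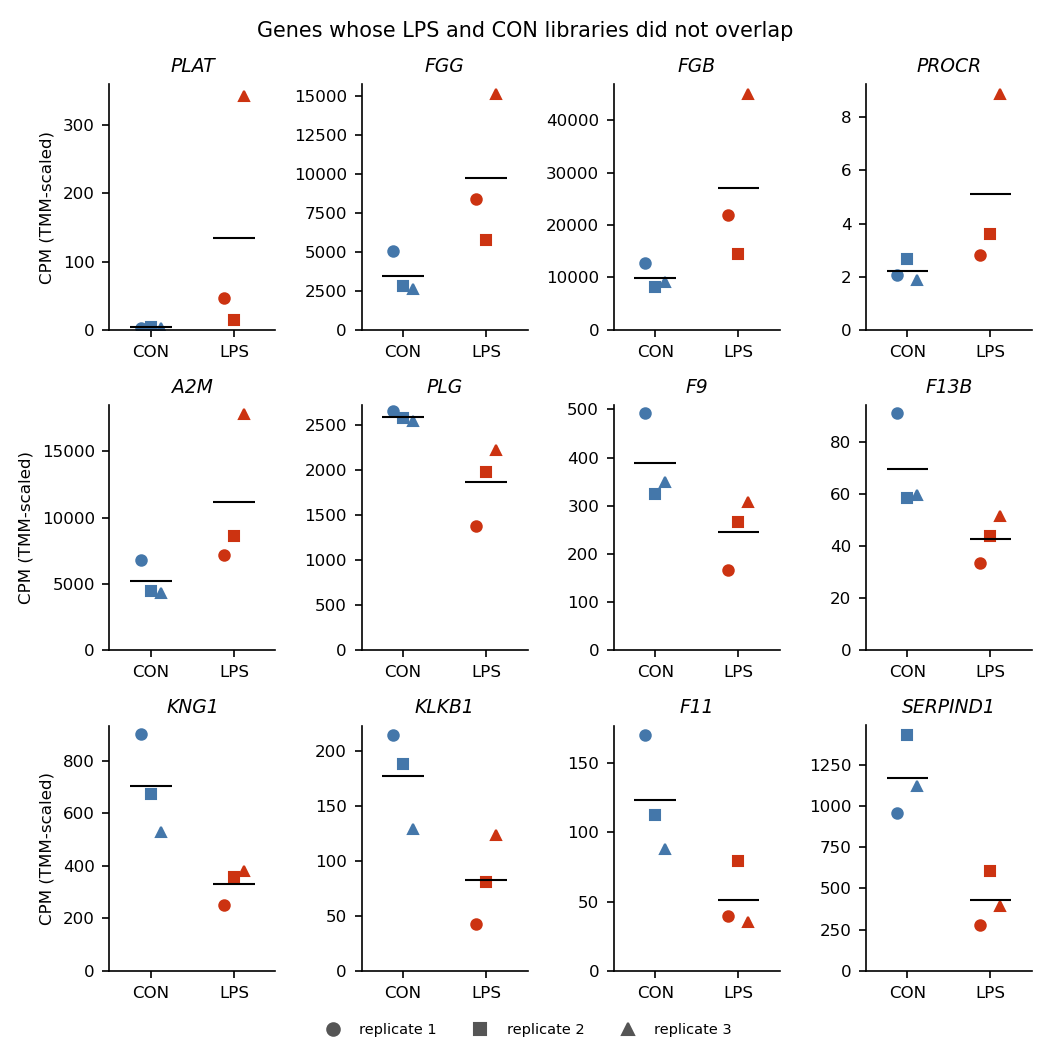
TMM-scaled CPM of the 12 genes whose LPS and CON libraries did not overlap, one panel per gene with its own linear axis from 0, points for single libraries (circle, square and triangle for replicates 1, 2 and 3) and a bar at the group mean of 3 libraries. In the 5 genes that were higher in the LPS group replicate 3 is the highest point, and in 6 of the 7 that were lower LPS replicate 1 is the lowest, with F11 the exception.

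Of the 5 anticoagulant genes with a row, the thrombin inhibitor SERPIND1 had the lowest fold change of the whole list. SERPIND1, which encodes heparin cofactor II (ENSSSCG00000010093, chr14:50416309-50436470), had 959, 1431 and 1121 CPM in the CON libraries and 280.0, 606 and 395 CPM in the LPS libraries. Every LPS library was below every CON library and LPS replicate 2 was nearest to them, with -1.45 ± 0.38 as log2 fold change (edgeR adjusted p = 0.200). DESeq2 called the gene at -1.42 (adjusted p = 0.0174), and edgeR did so without LPS replicate 2 at -1.79 (adjusted p = 0.0238), and its log2 fold change lay between -1.79 and -1.22 whichever library was left out, with adjusted p over all alternatives from 0.0174 to 0.586. SERPINC1, which encodes antithrombin, the main plasma inhibitor of thrombin and factor X (ENSSSCG00000015493, chr9:116181980-116193201), had 2343, 2129 and 1725 CPM in the CON libraries and 1061, 1497 and 2073 CPM in the LPS libraries. Only LPS replicates 1 and 2 were below the CON range, and the log2 fold change was -0.42 ± 0.35 (edgeR adjusted p = 0.662). The difference between SERPIND1 and SERPINC1 was not tested.

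Protein C (PROC) and its cofactor protein S (PROS1) inactivate factors V and VIII, and the endothelial receptor PROCR presents protein C for activation. PROC (ENSSSCG00000023693, chr15:25032622-25056595) had 1920.3 ± 369.7 CPM in CON livers and 1690.0 ± 268 CPM after LPS (mean ± SD, n = 3 per group), with a log2 fold change of -0.18 ± 0.32. PROS1 (ENSSSCG00000025463, chr13:165911366-165999811) had 230.0, 151 and 113 CPM in the CON libraries and 47.1, 113 and 125 CPM in the LPS libraries, where LPS replicate 1 was lowest, LPS replicate 2 was about level with CON replicate 3 and LPS replicate 3 was inside the CON range (log2 fold change -0.79 ± 0.43, edgeR adjusted p = 0.491). PROCR (ENSSSCG00000026585, chr17:38532554-38537397) was expressed at a low level, on 23, 17 and 19 counts in the CON libraries and 13, 22 and 130 in LPS replicates 1, 2 and 3. After scaling these were 2.06, 2.66 and 1.88 CPM in the CON libraries and 2.83, 3.60 and 8.88 CPM in the LPS libraries. All LPS values were above all CON values, LPS replicates 1 and 2 by less than 1 CPM over CON replicate 2, with 1.26 ± 0.52 as log2 fold change (edgeR adjusted p = 0.367). Without LPS replicate 3 the log2 fold change was 0.58.

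PLAT, which encodes tissue-type plasminogen activator, had the largest fold change of the list. PLAT (ENSSSCG00000007032, chr17:11195602-11224032) rested on 37, 28 and 31 counts in the CON libraries and 216, 86 and 5013 in LPS replicates 1, 2 and 3. The scaled values were 3.31, 4.37 and 3.07 CPM in the CON libraries and 47.1, 14.1 and 342 CPM in the LPS libraries. The CON libraries were close to each other, all LPS libraries exceeded them, and LPS replicate 3 was far above the other LPS libraries. The comparison gave 5.24 ± 1.09 as log2 fold change (edgeR adjusted p = 0.119), and the estimate became 3.11 without LPS replicate 3 and 5.78 without LPS replicate 2. The edgeR test called PLAT in both of these fits (adjusted p = 0.0255 and 0.00411), and DESeq2 called it with all libraries (adjusted p = 0.00125). Over all alternatives run the adjusted p ran from 1.86e-24, without the filter on low counts, to 0.601. Without the filter the log2 fold change was 5.22 ± 0.48 on the same libraries. That smaller error does not reflect the wide spread of the LPS values, so the lowest p is not to be relied on.

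In the urokinase arm the groups overlapped. PLAU, the urokinase-type activator gene (ENSSSCG00000010312, chr14:76629299-76635172), had 5.63, 10.6 and 7.71 CPM in the CON libraries and 5.01, 6.05 and 13.6 CPM in the LPS libraries. LPS replicate 3 was the highest and LPS replicate 1 the lowest of all 6, with a log2 fold change of 0.08 ± 0.46 that became -0.50 without LPS replicate 3 and -0.17 with scaling to total counts. Its receptor PLAUR (ENSSSCG00000032434, chr6:50489777-50505418) had 5.54, 7.66 and 5.24 CPM in the CON libraries and 5.67, 3.76 and 22.0 CPM in the LPS libraries. Only LPS replicate 3 was above the CON range, and the log2 fold change of 0.81 ± 0.61 (edgeR adjusted p = 0.624) became -0.37 without that library. Per kilobase, the ratio of PLAT to PLAU was 0.571, 0.400 and 0.386 in the CON libraries and 9.13, 2.26 and 24.5 in the LPS libraries, so that PLAT exceeded PLAU in every LPS library and in no CON library. Since PLAU overlapped between the groups, this separation mainly restates the values of PLAT. Of the 8 tested neutrophil markers 7 had log2 fold changes above 0 (median 2.37), and the list summed to 38.3 to 70.9 CPM in the CON libraries and 199, 125 and 357 CPM in LPS replicates 1, 2 and 3. LPS replicate 3 was the highest LPS library for these markers as for PLAT and PLAUR, and for 39.3% of all tested genes. In LPS replicates 1 and 2 the summed markers also exceeded the CON range, while PLAUR did not. The endothelial markers summed to 331 to 635 CPM in the CON libraries and 275, 425 and 295 CPM in LPS replicates 1, 2 and 3. The part of either marker list in both genes was not tested.

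The substrate of fibrinolysis (PLG) and the inhibitors SERPINF2 and CPB2 are known as hepatocyte products. In the CON group their levels per kilobase were far above those of the activators PLAT and PLAU. PLG, the plasminogen gene (ENSSSCG00000004038, chr1:7061191-7110555), had 2657, 2577 and 2544 CPM in the CON libraries and 1382, 1983 and 2223 CPM in the LPS libraries. The CON values were nearly equal and all LPS values lay below them, with -0.48 ± 0.32 as log2 fold change (edgeR adjusted p = 0.578). Exons of SLC22A3 cover 12.4% of its exonic bases. SERPINF2, which encodes alpha-2-antiplasmin (ENSSSCG00000038745, chr12:47933864-47942287), had 1242 ± 314 CPM in CON livers and 1309 ± 334 CPM after LPS (mean ± SD, n = 3 per group), with a log2 fold change of 0.08 ± 0.34 that became -0.02 with scaling to total counts. CPB2, the carboxypeptidase that protects fibrin from plasmin (ENSSSCG00000009413, chr11:21234447-21298244), had 940.1 ± 374 and 742 ± 251 CPM, a log2 fold change of -0.34 ± 0.39. In both genes the groups overlapped.

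A2M encodes alpha-2-macroglobulin, which traps plasmin, thrombin and other proteases. A2M (ENSSSCG00000000660, chr5:62438017-62485537) had 6814, 4472 and 4296 CPM in the CON libraries and 7152, 8618 and 17792 CPM in the LPS libraries. All LPS values were above all CON values, LPS replicate 1 just above CON replicate 1 and LPS replicate 3 far above the rest. The comparison gave 1.11 ± 0.43 as log2 fold change (edgeR adjusted p = 0.343), which became 0.62 without LPS replicate 3. HRG, whose protein binds plasminogen and heparin (ENSSSCG00000011801, chr13:124505303-124516384), had 5711, 3582 and 3057 CPM in the CON libraries and 1858, 2419.7 and 5043 CPM in the LPS libraries. LPS replicates 1 and 2 were below the CON range and LPS replicate 3 was inside it, so that the log2 fold change was -0.41 ± 0.45 with all libraries and -0.92 without LPS replicate 3. HRG lies next to KNG1 on chromosome 13. The ratio of FGB to HRG per kilobase was 0.807, 0.820 and 1.07 in the CON libraries and 4.28, 2.18 and 3.23 in the LPS libraries. It sets a gene higher in every LPS library against a gene of negative fold change, so the separation restates their values.

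**Figure D3:**
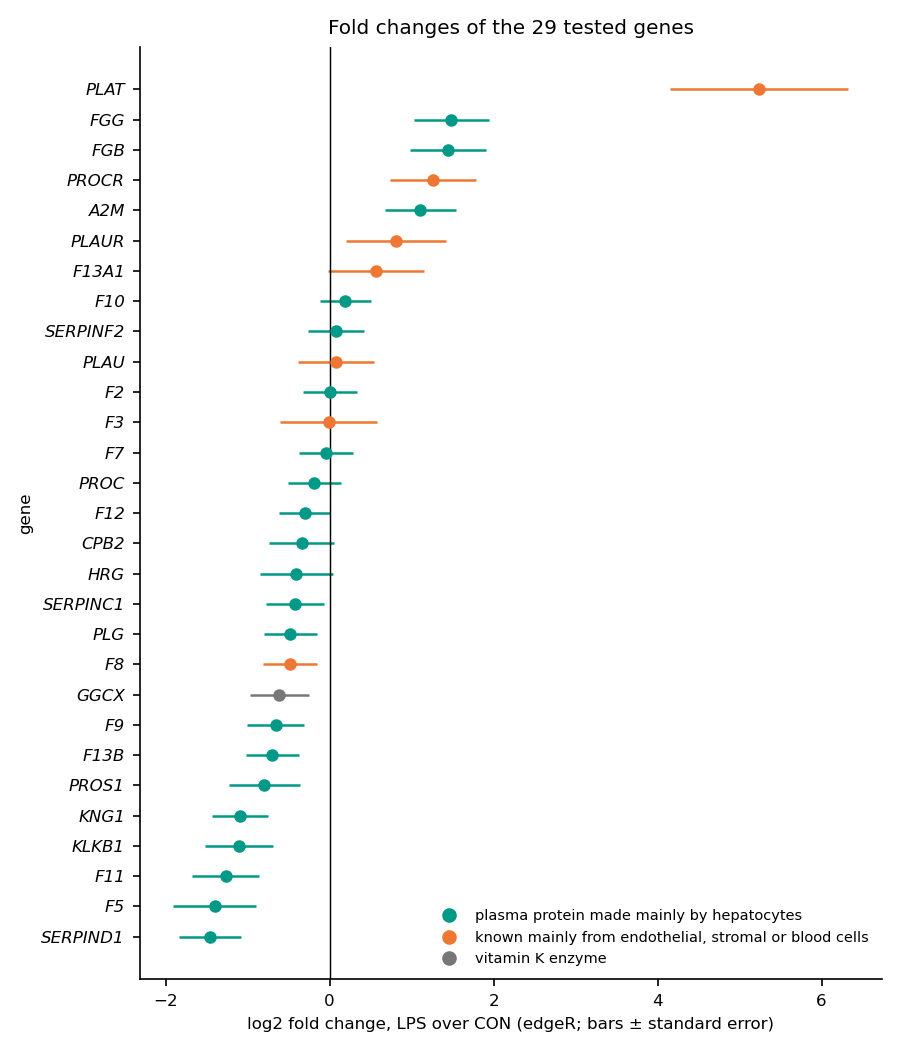
Log2 fold change of each of the 29 tested genes, LPS over CON, from edgeR (points, with bars for the standard error), coloured by the known main source of the protein. Genes made mainly by hepatocytes hold most of the lower part, down to SERPIND1 at -1.45, with GGCX, F8 and F3 also below 0. The hepatocyte genes FGG, FGB and A2M are near the top, at 1.48, 1.45 and 1.11. PLAT stands alone at 5.24, and none of the 29 was called.

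Grouped by known source, 21 tested genes for hepatocyte-made plasma proteins had 6 log2 fold changes above and 15 below 0, with a median of -0.41. The 10 hepatocyte markers had 3 above and 7 below 0, with a median of -0.36. For the 7 tested genes known mainly from endothelial, stromal or blood cells, 5 were above and 2 below 0, with a median of 0.57. LPS replicate 1 was the lowest LPS library in 15 of the 21 hepatocyte genes, beside 32% of all tested genes. Among the 15 below 0, a subset picked by its values, it was lowest in 13. It also had the lowest summed hepatocyte markers, whose part in these values was not tested. These genes share their libraries and cell of origin and are not independent of each other. Measured as log2 distance from the CON mean, the hepatocyte genes had medians of -0.91, -0.41 and -0.07 in LPS replicates 1, 2 and 3, and from -0.20 to 0.37 in the CON libraries, so that only LPS replicates 1 and 2 were outside the CON range. The 7 genes of other cells had medians of -0.09, 0.61 and 1.41 in LPS replicates 1, 2 and 3. In the CON libraries their medians ran from -0.09 to 0.24, so that LPS replicate 1 was not raised and LPS replicate 3 was highest.

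Another 38 genes of the clotting, fibrinolytic and platelet receptor systems were examined in the same fit, of which 35 had a row and 26 were tested. EdgeR called 0 of the 26, beside 0.0548% of all tested genes. At an unadjusted p below 0.05, 5 were higher and 1 was lower, beside 6.18% and 6.33% of all tested genes, and DESeq2 called 4 higher and 1 lower, beside 1.89% and 0.976%. Of the 26, 5 lay higher and 1 lower in every LPS library than in every CON library, beside 6.52% and 9.8% of all tested genes. Of the 6 with the smallest p, 5 are described here, 4 of them higher and HABP2 lower in every LPS library. They were picked by p from these same values, so their separation is not independent support. SERPINE2, which encodes the thrombin inhibitor protease nexin 1 (ENSSSCG00000016233, chr15:125747294-125816215), had 5.63, 0.937 and 2.47 CPM in the CON libraries and 9.16, 9.16 and 36.6 CPM in the LPS libraries, a log2 fold change of 2.58 ± 0.73 (edgeR adjusted p = 0.221). TFPI2, an inhibitor of plasmin and other proteases related to TFPI (ENSSSCG00000015322, chr9:73673535-73689095), had 10.5, 9.999 and 7.81 and 22.2, 11.1 and 60.7 CPM, a log2 fold change of 1.75 ± 0.56 (edgeR adjusted p = 0.257). In both genes all LPS libraries were above all CON libraries and LPS replicate 3 was highest. The transglutaminase gene TGM2 (ENSSSCG00000023522, chr17:41186766-41221637) had 37.9, 38.1 and 46.8 and 118, 62.3 and 152 CPM, a log2 fold change of 1.44 ± 0.37 (edgeR adjusted p = 0.200). PLGRKT, a plasminogen receptor gene (ENSSSCG00000005212, chr1:216692047-216739728), had 6.70, 6.87 and 6.13 and 13.1, 7.36 and 18.2 CPM. LPS replicate 2 was within 1 CPM of the highest CON library in PLGRKT, and within 16 CPM of the highest CON library in TGM2. HABP2, which encodes a plasma protease that can activate urokinase (ENSSSCG00000010639, chr14:123893989-123932962), was lower in every LPS library, with 137, 147 and 121 and 27.0, 79.5 and 43.6 CPM and a log2 fold change of -1.43 ± 0.41 (edgeR adjusted p = 0.221). No marker of the cell type lists that had a row was at 0 in all libraries. Among the related genes, the platelet receptor genes GP1BB and GP5 were at 0 in all of them. The 6 platelet markers with a row, of which 1 was tested, summed to 3.76 to 4.65 CPM in the CON libraries and 4.58, 4.09 and 5.87 CPM in LPS replicates 1, 2 and 3.

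**Figure D4:**
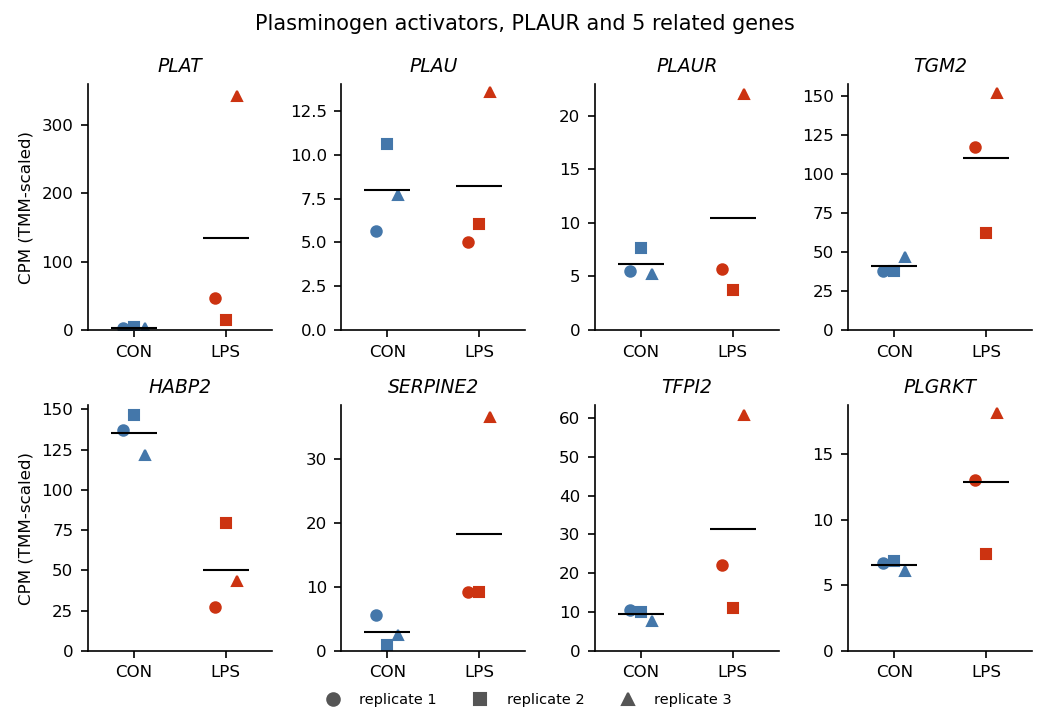
TMM-scaled CPM of PLAT, PLAU, PLAUR and 5 related genes, one panel per gene with its own linear axis from 0, points for single libraries (circle, square and triangle for replicates 1, 2 and 3) and a bar at the mean of 3 libraries. LPS replicate 3 is highest in every panel but HABP2, and in PLAU and PLAUR LPS replicates 1 and 2 lie among or below the CON points.

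**Figure D5:**
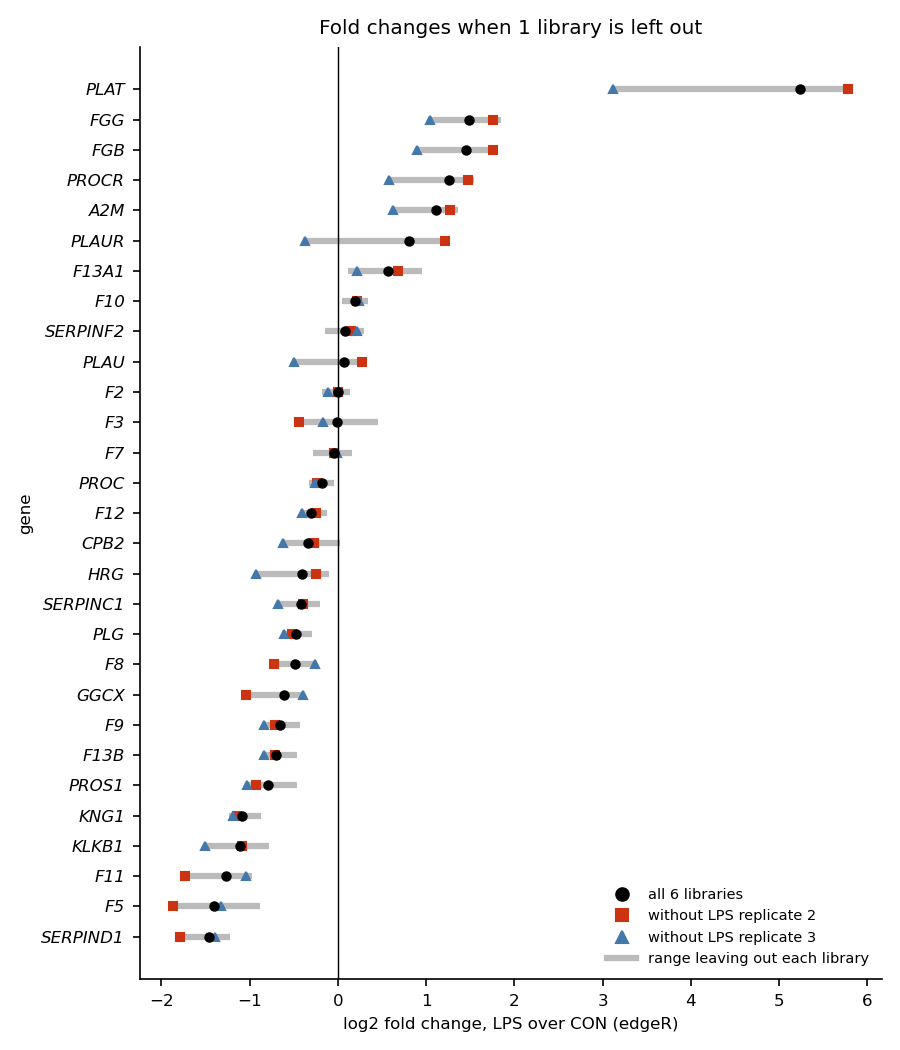
Log2 fold change of the 29 tested genes with all 6 libraries (black circles), without LPS replicate 2 (red squares) and without LPS replicate 3 (blue triangles), with grey bars for the range over all 6 fits that leave out 1 library. PLAT stays between 3.11 and 5.78, while the bars of F3, F7, F2, PLAU, PLAUR, SERPINF2 and CPB2 cross 0.

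Leaving out LPS replicate 3, the deepest library, lowered the fold change of each of the 5 genes that were all higher in the LPS group, and leaving out LPS replicate 2 raised it. For the 7 genes that were all lower, every fit that left out 1 library kept the log2 fold change below 0. With 3 libraries per group the smallest p of an exact two-sided permutation test is 0.1 for any one gene.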

How the data were processed

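Values came from a single table of counts per gene that the authors deposited, with 6 columns of liver input libraries, 1 per replicate and group. The submitters' processing notes name cutadapt 1.9.3 and HISAT2, while the sources used here do not give the pig build, the counting tool or its strand setting. The authors selected polyadenylated RNA, fragmented it by sonication and kept the input aside from m6A immunoprecipitation, so counts depend on gene length and annotation.

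The 36 genes and all lists were chosen with earlier results of these data known. Symbols came from the reference table of gene names, which paired 15029 of 31908 identifiers. Low genes were removed with filterByExpr (minimum count 10), TMM set the scale, and the groups were compared with edgeR 4.0.16 (quasi-likelihood, robust) in R 4.3.3, without covariates and with Benjamini-Hochberg adjustment over 12774 genes. The study's methods give a two-tailed Student's test for group comparisons in general and name none for sequencing counts, for which a count model was used here. All listed genes with a row were named, and of the related genes the 6 with the smallest p, of which 1 is not reported here. Alternatives were DESeq2 1.42.0, limma-voom (limma 3.58.1), RLE and total-count scaling, other filters and fold thresholds, a replicate block and leaving out each library. Depth, from 4348478 to 19967417 counts, limits genes near the filter. The biological coefficient of variation was 0.397.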

Additional observations from a re-analysis of the deposited data

How the results depend on the processing

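With 29 of the listed genes tested, 0 were called, and DESeq2 called 3 higher and 1 lower, edgeR without the filter on low counts 1 and 3, and fits leaving out 1 library 0 to 3 in each direction. Of the related genes DESeq2 and the fit without a filter each called 4 higher and 1 lower, and fits leaving out 1 library 0 to 4 and 0 to 1. Over all genes 7 were called higher and 0 lower. DESeq2 gave 275 and 142, no filter 536 and 349, scaling to total counts 11 and 1, a minimum of 10 counts in every library 0 higher, limma-voom 2 higher, RLE size factors 1 lower, and fits without 1 library 0 to 512 and 0 to 470, the highest without LPS replicate 2. The cause was not tested. The median of the listed genes, -0.30, lay between -0.40 and -0.14 in fits without 1 library.

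The sign of 7 listed genes turned under some alternative, and PLAUR, PLAU and F3 moved furthest past 0. F3 was at 0.0204 with RLE size factors and 0.0193 with DESeq2, and F7 at 0.0121 with limma-voom. F2 was at -0.0264 without a filter and -0.0251 with the stricter one. With scaling to total counts, which put the median of all tested genes at -0.12, F2 was at -0.13, PLAU at -0.17 and SERPINF2 at -0.0193. Leaving out 1 library gave ranges of -0.44 to 0.46 for F3, -0.28 to 0.16 for F7, -0.18 to 0.14 for F2, -0.50 to 0.33 for PLAU, -0.37 to 1.22 for PLAUR, -0.14 to 0.30 for SERPINF2 and -0.62 to 0.0281 for CPB2.

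Replicate numbers are shared between the groups. Deviations from the group mean correlated at -0.26, 0.22 and 0.03 between same-numbered libraries, and from -0.26 to 0.23 between differently numbered ones. With 3 libraries per group these values cannot show whether the numbers pair the libraries. With the replicate number as a block edgeR called 42 genes higher and 9 lower, none of them on either list, F7 was at 0.0108 and PLAU at -0.0344.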

Other observations

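Markers of the remaining cell types gave the following levels beside the clotting genes. The cholangiocyte markers, keratins and other genes of the bile duct lining, summed to 7.66 to 12.0 CPM in the CON libraries and 20.5, 21.6 and 32.5 CPM in LPS replicates 1, 2 and 3, with a median log2 fold change of 1.16. Red blood cell markers summed to 79.3 to 105 CPM in the CON libraries and 254, 102 and 374 CPM in LPS replicates 1, 2 and 3, with a median of 1.44. Stellate cell or fibroblast markers had 3 log2 fold changes above and 5 below 0 and summed to 916 to 1349 CPM in the CON libraries and 675, 1431 and 623 CPM in LPS replicates 1, 2 and 3. The part of these cells in the values of the clotting genes was not tested.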
